A study of Mus musculus with 4 samples.

Results

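The 4 chemokine genes *Ccl3*, *Ccl4*, *Ccl5* and *Xcl1* and the receptor gene *Xcr1* were followed through single liver mononuclear cells of C57BL/6 mice. These 5 genes were taken by symbol from the 31053 genes of the count tables. Levels of the ligands are given for natural killer (NK), CD8, CD4, innate-like T and myeloid cells in each of 4 libraries, and in neutrophils and B cells for reference. The share of cells in which a ligand was detected is given for NK cells and, for some ligands, in other gates. That of *Xcr1* is given for dendritic cells. The mice were 8 to 10 weeks old, and each group was a single library, so 4 libraries stand for 4 conditions. Naïve mice received no concanavalin A (ConA), a lectin used in mice to bring on liver inflammation driven by T cells. The other groups received ConA together with vehicle (ConA+Veh), TCDD (ConA+TCDD) or FICZ (ConA+FICZ), and their cells were taken 24 hours after ConA. Vehicle and TCDD were given after ConA. TCDD is a dioxin and FICZ a tryptophan-derived compound, and both are ligands of the aryl hydrocarbon receptor (AhR). All mice were of the same strain, and the labels name no transgene or deletion. The number of mice behind a library and the dose and timing of FICZ are not given in the sources used here.

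Chemokines are small secreted proteins that guide the movement of leukocytes by binding receptors on the cell surface. *Ccl3*, *Ccl4* and *Ccl5* encode CC chemokines, also known as MIP-1α, MIP-1β and RANTES, which attract T cells, NK cells and monocytes. The receptors of CCL3 and CCL5 include CCR1. *Xcl1* encodes lymphotactin, whose receptor XCR1 is carried by type 1 conventional dendritic cells, the dendritic cells that excel at cross-presenting antigen to CD8 T cells. NK cells and cytotoxic T cells are well known sources of these 4 ligands, and macrophages and neutrophils are also known to make CCL3 and CCL4.

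The ligands carry their family names in their coding sequence. In the CC genes a pair of adjacent cysteine codons follows the signal peptide, whereas *Xcl1* has a lone cysteine codon there. The stretches below show that difference. They start 15 bases before the first cysteine codon found from codon 30 onward, are written 5′ to 3′ on the coding strand, and lie within 1 exon each (GENCODE vM21, GRCm38). Capitals mark the cysteine codons of this first motif.
Ccl3: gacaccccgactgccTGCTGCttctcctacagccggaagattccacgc
Ccl4: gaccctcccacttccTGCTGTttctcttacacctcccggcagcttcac
Ccl5: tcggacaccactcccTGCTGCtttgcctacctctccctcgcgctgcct
Xcl1: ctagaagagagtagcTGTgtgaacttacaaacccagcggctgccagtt
The stretches lie at chr11:83648625-83648672 on the minus strand for *Ccl3*, chr11:83663467-83663514 on the plus strand for *Ccl4*, chr11:83529215-83529262 on the minus strand for *Ccl5* and chr1:164932945-164932992 on the minus strand for *Xcl1*. From codon 30 onward each CC gene has 4 cysteine codons and *Xcl1* has 2. The coding sequences run to 92 codons in *Ccl3* and *Ccl4*, 91 in *Ccl5* and 114 in *Xcl1*, each over 3 exons.

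The CC genes are neighbours. *Ccl5* (chr11:83525778-83530518), *Ccl3* (chr11:83647844-83649355) and *Ccl4* (chr11:83662584-83664683) lie within 138906 bases of chromosome 11, and 13228 bases separate *Ccl3* from *Ccl4*, which is read from the opposite strand. *Xcl1* (chr1:164931644-164935527) and *Xcr1* (chr9:123852315-123862029) lie apart from them, and *Xcl1* overlaps the gene *Gm20743* on the other strand. The coding sequences of *Ccl3* and *Ccl4* were identical at 68.1% of aligned columns, those of *Ccl3* and *Ccl5* at 62.8%, and those of *Ccl4* and *Ccl5* at 59.9%. *Xcl1* shared between 45.5% and 49.6% with the CC genes. No stretch of 31 bases in any of the 4 ligand transcripts occurred in the transcripts of another gene, so reads of that length or longer could be told apart between these paralogs. Upstream sequences of 250 bases from RefSeq (GRCm38.p6) were at hand for 3 of the 5 genes, *Ccl3*, *Xcl1* and *Xcr1*. Searched on both strands, they held no match to the AP-1 letters TGANTCA (found in 6.75% of 32851 promoters), the NF-kB motif (1.41%) or the T-box letters TCACACNT (2.95%). The Runx letters TGTGGTT occurred once, in *Xcl1*, 228 bases before its RefSeq start (4.4% of promoters), and TATAAA occurred once, in *Xcr1* (12.4%).

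Cells were assigned to gates by marker genes, none of them a chemokine gene. The unit of measurement is the unique molecular identifier (UMI), a tag that counts each captured RNA molecule once. Naïve held 2086 cells, ConA+Veh 2779, ConA+TCDD 1880 and ConA+FICZ 2555, and the libraries held between 5952445 and 19252211 UMIs, with a median of 2161 UMIs per cell in Naïve and 3147 to 3984 in the ConA libraries. Any pair of libraries shared between 4 and 15 cell barcodes. The NK gate required at least 2 of 5 NK markers and no *Cd3e*, *Cd4* or *Cd8b1*, and it may hold type 1 innate lymphoid cells, which carry some of the same markers. It took 126, 214, 156 and 162 cells in the order Naïve, vehicle, TCDD and FICZ, which is kept throughout. *Ncr1*, a defining NK receptor and itself among the 5 markers, was found in 55.6% to 64.3% of them. *Trac*, a T cell receptor gene, was found in 5.61% to 7.14%. This gate also differed between libraries in some marker genes. The NK gene *Eomes* was found in 28.6%, 43%, 39.1% and 34% of its cells and *Klre1* in 72.2%, 79.4%, 64.1% and 68.5%. These shares were taken with no correction for depth. The median NK cell held 1796 UMIs in Naïve and 2514 to 2775 in the ConA libraries, and a deeper cell is more likely to show a gene. The higher shares in ConA+Veh than in Naïve are thus not read as a change of makeup. By CPM both genes were highest in Naïve, *Eomes* at 219, 184, 143 and 147 and *Klre1* at 653, 525, 439.8 and 494. *Klrb1c*, another of the 5 markers, was found in 82.5%, 80.8%, 78.8% and 80.9% of the cells. *S100a8*, a gene of neutrophils and monocytes, counted 2, 2, 300 and 1 UMIs, and the 300 lay in 2.56% of the ConA+TCDD cells. The part of these marker differences in the ligand levels of NK cells was not tested. The CD8 gate took 168, 405, 270 and 248 cells, the CD4 gate 64, 113, 80 and 74, the innate-like T gate, which joins NKT and gamma delta T cells, 94, 107, 71 and 86, and the myeloid gate 87, 197, 45 and 205.

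Levels are given as UMIs of the gene per 1000000 UMIs of all genes in the gate (CPM), with exact Poisson 95% intervals in square brackets. Differences between libraries are log2 ratios of CPM with exact binomial intervals. All intervals cover counting error only. With 1 library per group no test between conditions was possible, and every difference below is a difference between libraries. B cells served as the background for RNA from other cells or from the solution, and in them no library exceeded 11.3 CPM of *Ccl3*, 25.6 of *Ccl4*, 36.7 of *Ccl5* or 2.25 of *Xcl1*.

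In NK cells *Ccl3* was lowest in ConA+Veh. Its level was 1068 CPM [946 to 1202] in Naïve, 263 [228 to 301] in ConA+Veh, 1001 [923 to 1085] in ConA+TCDD and 639 [573 to 711] in ConA+FICZ. With all cells counted, the intervals of Naïve and ConA+TCDD overlapped, and those of ConA+Veh and ConA+FICZ overlapped with no other. ConA+Veh differed from Naïve by a log2 ratio of −2.02 [−2.29 to −1.76], and ConA+TCDD and ConA+FICZ differed from ConA+Veh by 1.93 [1.70 to 2.17] and 1.28 [1.03 to 1.54]. These ratios rest on 278, 204, 601 and 340 UMIs.

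By CPM *Ccl4* followed the same order of libraries with smaller steps. Its NK level was 3362 CPM [3143 to 3593] in Naïve, 1735 [1643 to 1830.0] in ConA+Veh, 3192 [3051 to 3338] in ConA+TCDD and 2349 [2221 to 2483] in ConA+FICZ, so that Naïve and ConA+TCDD again overlapped. ConA+Veh differed from Naïve by a log2 ratio of −0.95 [−1.08 to −0.83], and ConA+TCDD and ConA+FICZ differed from ConA+Veh by 0.88 [0.78 to 0.98] and 0.44 [0.33 to 0.55]. A single Naïve cell held 176 of the 875 *Ccl4* UMIs of its NK gate. As means over cells of UMIs per 10000 *Ccl4* stood at 37.3, 21.6, 46.9 and 30.1, with ConA+TCDD above Naïve.

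*Ccl5* was also lowest in ConA+Veh. Its NK level was 17504 CPM [16999 to 18020.0] in Naïve, 8209 [8009 to 8413] in ConA+Veh, 10742 [10482 to 11008] in ConA+TCDD and 14381 [14061 to 14707] in ConA+FICZ, and no intervals overlapped. ConA+Veh differed from Naïve by a log2 ratio of −1.09 [−1.15 to −1.04], and ConA+TCDD and ConA+FICZ differed from ConA+Veh by 0.39 [0.34 to 0.44] and 0.81 [0.76 to 0.86].

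*Xcl1* was lowest in ConA+FICZ. Its NK level was 961 CPM in Naïve (250 UMIs), 629.8 in ConA+Veh (489), 556 in ConA+TCDD (334) and 348 in ConA+FICZ (185). ConA+Veh was below Naïve, with a log2 ratio of −0.61 [−0.83 to −0.38], and ConA+FICZ below ConA+Veh, at −0.86 [−1.11 to −0.61], while the interval between ConA+TCDD and vehicle, at −0.18 [−0.38 to 0.03], reached across 0. Set against ConA+Veh, the NK level in ConA+FICZ was thus lower for *Xcl1* and higher for each of the 3 CC ligands.

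Of the 4 ligands, 2 (*Ccl3* and *Ccl5*) differed by at least 2-fold between ConA+Veh and Naïve in NK cells, where 16.1% of the 2837 genes with at least 50 UMIs did so. Between ConA+TCDD and vehicle 1 ligand, *Ccl3*, passed that fold, against 1.83% of genes, and between ConA+FICZ and vehicle 1 ligand did, again *Ccl3*, against 2.38%. The median log2 ratio of the 4 ligands was −1.02, 0.63 and 0.62 in these comparisons, beside 0.00, −0.04 and −0.04 over all genes tested.

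Depth differed between the NK gates and bears on the first of these comparisons. The median NK cell held 1796 UMIs in Naïve and 2514 to 2775 in the ConA libraries. Counted as UMIs per cell, with no division by depth, *Ccl3* stood at 2.21, 0.953, 3.85 and 2.1, *Ccl4* at 6.94, 6.29, 12.3 and 7.72, *Ccl5* at 36.2, 29.8, 41.3 and 47.2, and *Xcl1* at 1.98, 2.29, 2.14 and 1.14. On this scale *Xcl1* was slightly higher in ConA+Veh than in Naïve, the reverse of its CPM. The 3 CC ligands stayed lowest in ConA+Veh, and the *Ccl3* ratio of ConA+Veh over Naïve was −1.21 in place of −2.02.

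**Figure D1:**
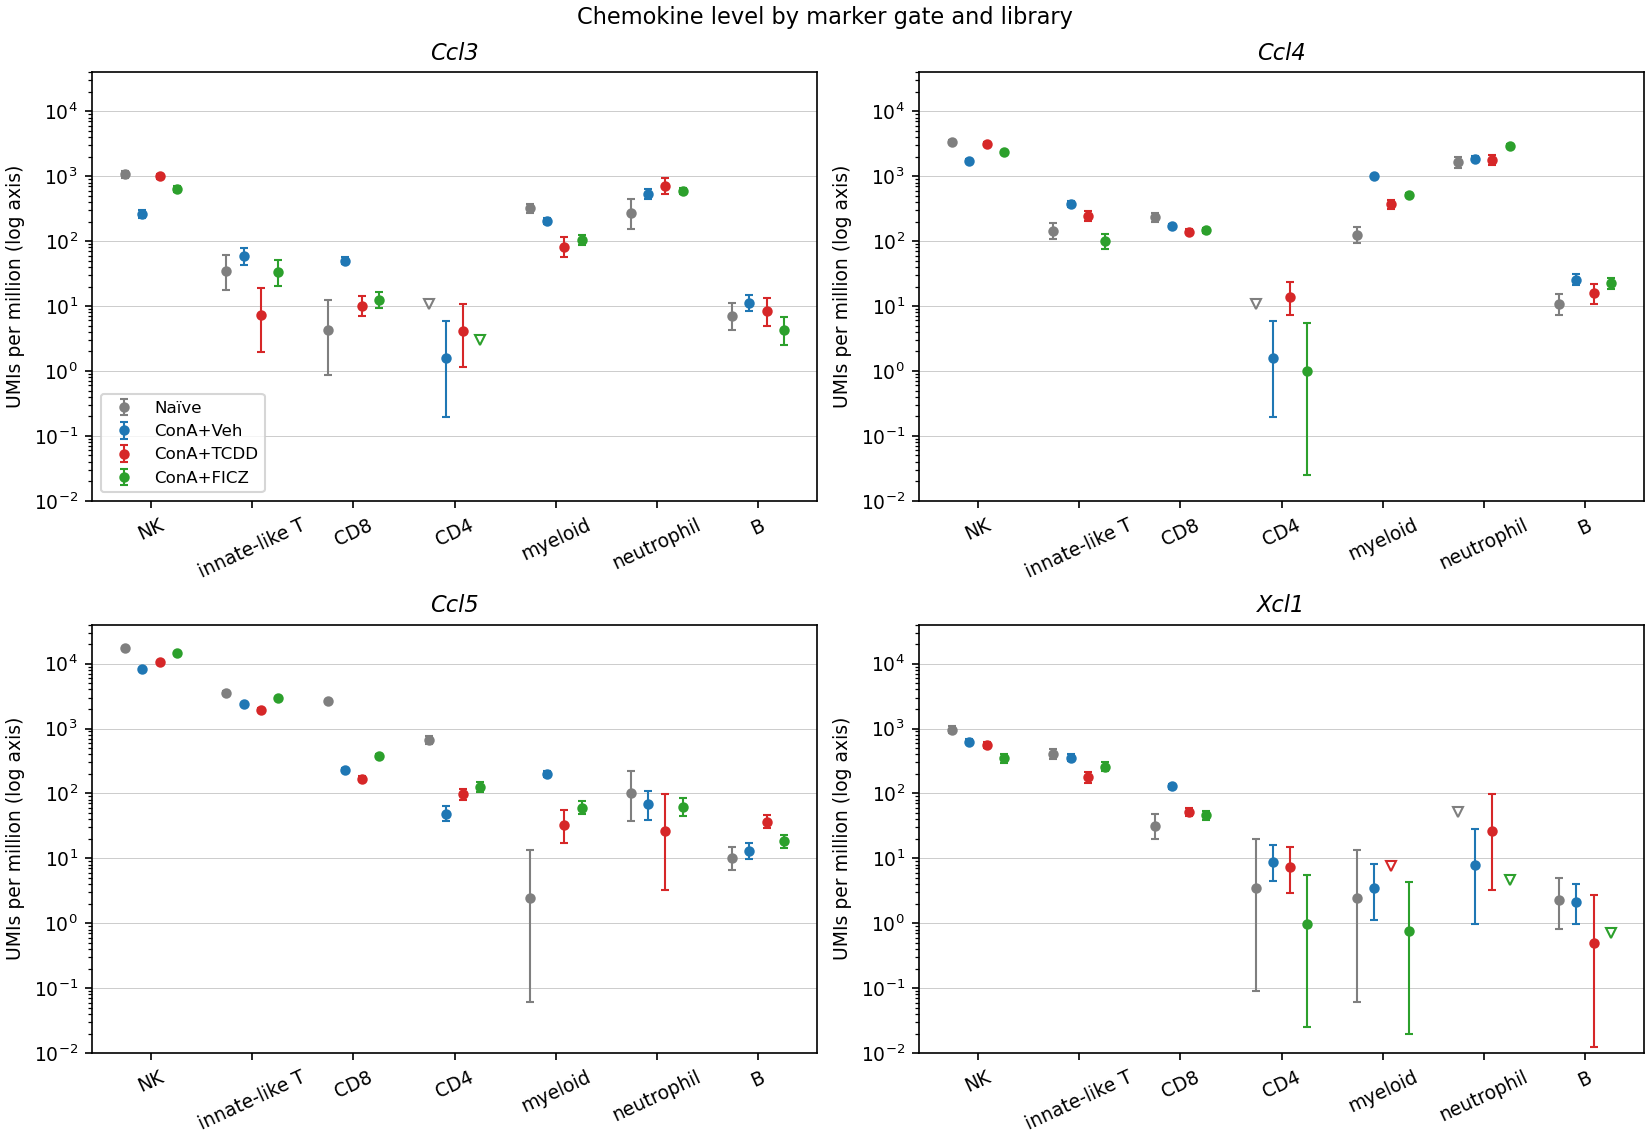
Level of each ligand (CPM, relative to all UMIs of the gate, log axis) in 7 marker gates and 4 libraries. Points are the single library of each group, bars the exact Poisson 95% intervals, and open triangles the 3-count floor where no UMI was found. In NK cells *Ccl3* lies at 263 in ConA+Veh and between 639 and 1068 in the other libraries.

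Effector genes of cytotoxic lymphocytes were measured in the same NK cells. Of 9 listed effector genes 7 had at least 50 UMIs in the libraries compared. For ConA+Veh over Naïve 4 of them were at least 2-fold higher, as were 7.51% of all NK genes with that many UMIs. These were *Gzma* (8162 against 20573 CPM), *Gzmb* (1426 against 6329), *Prf1* (684 against 1445) and *Srgn* (569 against 1448), which encode granzymes, perforin and the granule proteoglycan serglycin. *Ifng*, the gene of interferon gamma, was at least 2-fold lower, at 603 CPM in Naïve and 270.5 in ConA+Veh, as were 8.64% of all. None of the 7 differed by 2-fold between ConA+TCDD or ConA+FICZ and ConA+Veh, where 1.83% and 2.38% of all genes did, and *Gzma* stood at 20368 and 20706 CPM there.

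The share of NK cells in which a ligand was detected was compared after thinning each cell at random to 1000 UMIs. *Ccl3* was found in 37.7% of 106 Naïve cells, 13.3% of 203 ConA+Veh cells, 23.1% of 147 ConA+TCDD cells and 28.4% of 148 ConA+FICZ cells, against 0.147% to 0.85% of B cells. Without thinning the shares were 50%, 20.1%, 32.1% and 39.5%. With all cells counted, ConA+TCDD had a level of *Ccl3* like that of Naïve but a lower share of positive cells, so no order between these libraries is read from the share. The likeness of level depended on the top cell of ConA+TCDD, as given below. The mean positive cell held 12 UMIs of *Ccl3* in ConA+TCDD and 4.41 in Naïve, with no correction for depth. The median NK cell held 2713 UMIs in ConA+TCDD and 1796 in Naïve. The ConA+TCDD mean also includes the cell with 141 of its 601 *Ccl3* UMIs, so these means are not read as a difference per positive cell.

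*Ccl4* was detected in 57.5%, 39.4%, 53.1% and 53.4% of thinned NK cells, *Ccl5* in 98.1%, 86.2%, 92.5% and 96.6%, and *Xcl1* in 39.6%, 28.1%, 27.9% and 21.6%. Without thinning the shares were 67.5%, 55.6%, 71.8% and 65.4% for *Ccl4*, 99.2%, 93.9%, 98.1% and 98.8% for *Ccl5*, and 44.4%, 46.7%, 44.9% and 31.5% for *Xcl1*. The higher share of *Xcl1* in Naïve than in ConA+Veh was thus not seen without thinning. At 1000 UMIs *Ccl5* was found in most NK cells of every library, and *Ccl3* and *Xcl1* in a minority. The 10% of NK cells with the most *Ccl3* held 57.9% of its UMIs in Naïve and 70.6% to 86.3% in the ConA libraries. For *Ccl5* that share lay between 30.6% and 33.6%. A single cell carried 43 of the 204 *Ccl3* UMIs in ConA+Veh and 141 of the 601 in ConA+TCDD. Without the top cell of each library the NK levels of *Ccl3* were 983, 208, 769.7 and 551 CPM, with ConA+TCDD below Naïve.

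**Figure D2:**
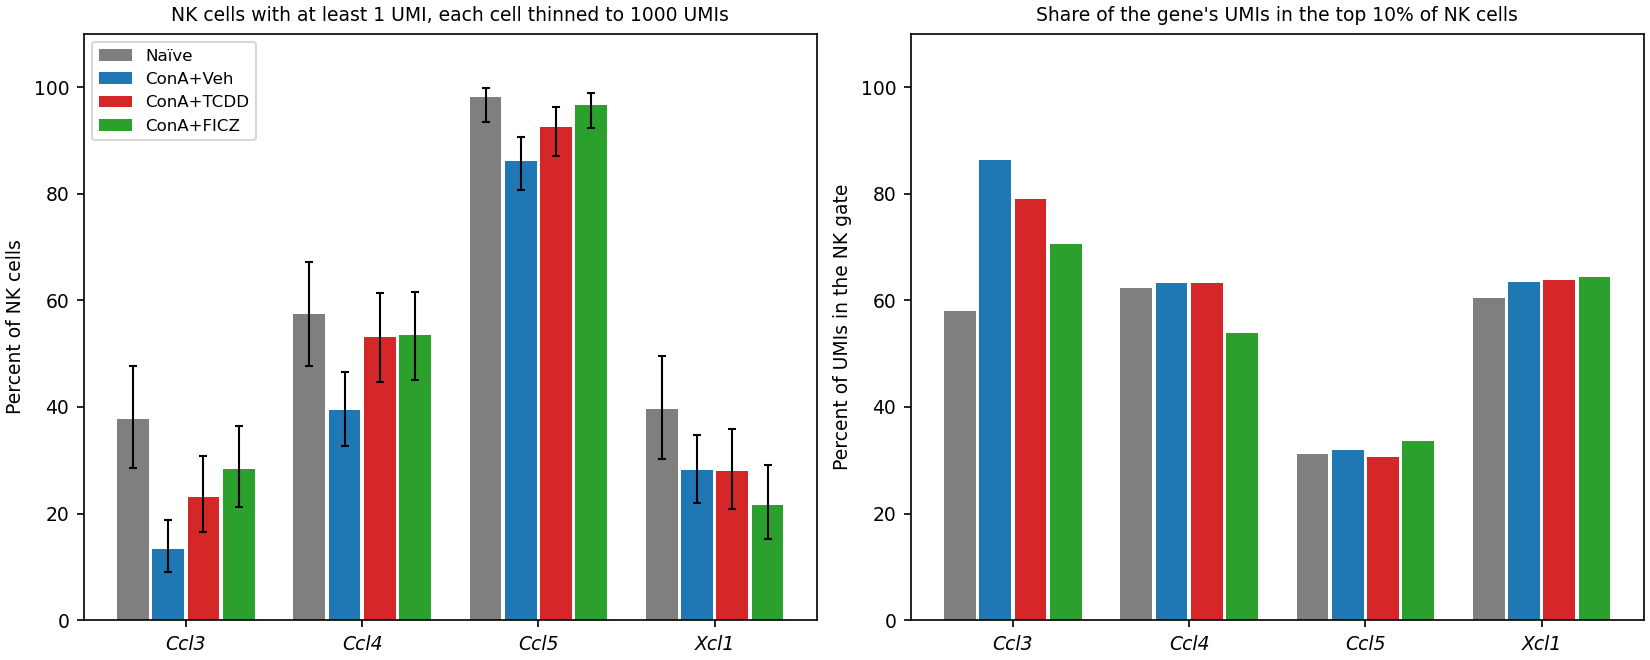
Left, percent of NK cells with at least 1 UMI after each cell was thinned to 1000 UMIs, with exact binomial 95% intervals. Right, percent of each gene's NK UMIs held by the 10% of NK cells with the most of it, which for *Ccl3* reaches 86.3% in ConA+Veh.

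*Ccl3* and *Ccl4* tended to be found in the same NK cells. Among thinned NK cells with *Ccl3*, the Naïve library showed *Ccl4* in 85% [70.2 to 94.3], and *Ccl4* was detected in 81.5% [61.9 to 93.7] in ConA+Veh, 91.2% [76.3 to 98.1] in ConA+TCDD and 76.2% [60.5 to 87.9] in ConA+FICZ. Among cells without *Ccl3* the shares were 40.9%, 33%, 41.6% and 44.3%, below the intervals of the cells with it in each library. *Xcl1* made no such difference: *Ccl4* was detected in 54.8% of Naïve NK cells with *Xcl1* and 59.4% of those without, and the intervals of the cells with and without *Xcl1* overlapped in all 4 libraries. Cells with *Ifng* had *Xcl1* in 44.4%, 38.6%, 30.4% and 20.8%, and cells without it in 38%, 25.2%, 27.4% and 21.8%, with overlapping intervals in each library.

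In innate-like T cells *Ccl5* and *Xcl1* were the ligands best measured. *Ccl5* stood at 3517 CPM in Naïve, 2367 in ConA+Veh, 1932 in ConA+TCDD and 2948 in ConA+FICZ, and *Xcl1* at 404, 357, 177 and 258 CPM. *Ccl5* was lowest in ConA+TCDD, with a log2 ratio to ConA+Veh of −0.29 [−0.40 to −0.18], and *Xcl1* likewise, at −1.01 [−1.36 to −0.68]. *Ccl5* was detected in 57.1% to 75.8% of thinned cells and *Xcl1* in 15.5% to 27.1%.

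*Ccl4* in innate-like T cells was highest in ConA+Veh. It stood at 144 CPM [107 to 190] in Naïve, 371 [331 to 415] in ConA+Veh, 246 [206 to 291] in ConA+TCDD and 98.9 [75.3 to 128] in ConA+FICZ. The direction is thus opposite to that in NK cells for each of the 3 comparisons, with log2 ratios of 1.37, −0.59 and −1.91. As means over cells of UMIs per 10000 these ratios were 0.56, −0.02 and −1.10. *Ccl4* was detected in 4.4%, 15%, 11.8% and 13.1% of thinned cells, with overlapping intervals among the ConA libraries. *Ccl3* rested on few UMIs here (12, 49, 4 and 20). Of the 4 ligands 1, *Ccl4*, differed by 2-fold between ConA+Veh and Naïve (16.9% of genes), 1, *Xcl1*, between ConA+TCDD and ConA+Veh (1.96%), and 1, *Ccl4*, between ConA+FICZ and ConA+Veh (3.22%). *Ccl3* was also past 2-fold between ConA+TCDD and ConA+Veh, but with 4 UMIs in ConA+TCDD it could reach the limit of 50 UMIs only by such a difference, so it is not counted. With gates set on thinned cells, which left between 14 and 45 innate-like T cells per library, the *Ccl4* ratio between ConA+TCDD and vehicle changed sign, to 1.43.

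The makeup of the innate-like T gate moved with these levels. The gamma delta T cell gene *Trdc* was found in 16%, 29.9%, 29.6% and 40.7% of its cells and *Klrb1c*, the gene of NK1.1, in 70.2%, 51.4%, 40.8% and 48.8%. The NK genes *Ncr1*, *Klre1* and *Eomes* each had their highest share in ConA+Veh, *Ncr1* in 4.26%, 11.2%, 5.63% and 6.98%, *Klre1* in 23.4%, 40.2%, 32.4% and 26.7%, and *Eomes* in 0%, 15.9%, 9.86% and 6.98%. These shares were taken without thinning, and the median cell held 2811, 4862, 5276 and 5192 UMIs. By CPM *Ncr1* and *Eomes* were again highest in ConA+Veh. *Klre1* was highest in Naïve by CPM, at 121, 107, 91.1 and 97.3, and *Trdc* stood at 115, 137, 102 and 186. The part of these shifts in the *Ccl4* levels was not tested.

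In CD8 T cells *Ccl5* was far higher in Naïve than in the ConA libraries. It stood at 2636 CPM [2517 to 2758] in Naïve, 231 [217 to 244] in ConA+Veh, 169 [156 to 184] in ConA+TCDD and 378 [359 to 398] in ConA+FICZ. The log2 ratio of ConA+Veh over Naïve was −3.51 [−3.62 to −3.41]. Counted as UMIs per cell *Ccl5* stood at 11, 2.85, 2.09 and 5.83, a log2 ratio of −1.95 between ConA+Veh and Naïve, and the mean over cells of UMIs per 10000 gave −2.28. *Ccl5* was detected in 24.8% of thinned Naïve cells and in 10.9%, 6.84% and 15.5% of the others, against at most 1.47% of B cells.

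*Xcl1* in CD8 T cells went the other way. Its level was 31.3 CPM (22 UMIs) in Naïve, 129 (646) in ConA+Veh, 52 (173) in ConA+TCDD and 46 (176) in ConA+FICZ. ConA+Veh differed from Naïve by a log2 ratio of 2.04 [1.43 to 2.73], and ConA+TCDD and ConA+FICZ differed from ConA+Veh by −1.31 [−1.56 to −1.07] and −1.49 [−1.74 to −1.24]. *Xcl1* was detected in 0.606%, 9.9%, 5.7% and 3.67% of thinned CD8 cells, and in at most 0.587% of B cells.

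The makeup of the CD8 gate moved with these levels. Cells with a UMI of the cycling genes *Mki67* or *Top2a* made up 5.36% of the gate in Naïve and 75.8%, 58.5% and 60.5% in the ConA libraries. The median CD8 cell held 3266 UMIs in Naïve and 8729.5 to 12040.5 in the ConA libraries, and a deeper cell is more likely to show a cycling gene.

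In cycling CD8 cells *Ccl5* stood at 112 CPM in ConA+Veh, 81.8 in ConA+TCDD and 224 in ConA+FICZ. The 2987 CPM of cycling cells in Naïve rest on 9 cells, of which a single cell held 230 of the 284 UMIs. The log2 ratio of ConA+Veh over Naïve in cycling cells was −4.74. Without the top cell of each library Naïve stood at 605 CPM and ConA+Veh at 94.1 in cycling cells, so Naïve was still the higher of the pair.

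*Xcl1* in cycling CD8 cells stood at 21 CPM in Naïve, where it counted 2 UMIs, and at 88.9 in ConA+Veh, 52.1 in ConA+TCDD and 42.6 in ConA+FICZ. ConA+Veh thus had the highest level of the 4 libraries in cycling cells too.

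*Ccl3* and *Ccl4* in CD8 T cells turned on a single cell. *Ccl3* counted 3, 251, 34 and 48 UMIs, and 200 of the 251 in ConA+Veh came from 1 cell, which also held 496 of the 847 *Ccl4* UMIs. That cell had 35729 UMIs in all, among them 26 of the Cd3 genes, 42 of the CD8 genes and 19 of the cycling genes, and none of the 5 NK markers. With it *Ccl3* stood at 4.27, 50.1, 10.2 and 12.5 CPM, and without the top cell of each library at 1.45, 10.3, 6.62 and 11. The log2 ratio of ConA+TCDD over ConA+Veh was −2.29 with the top cells and −0.63 without, and that of ConA+FICZ over ConA+Veh −2.0 and 0.10. *Ccl4* stood at 235, 169, 140.3 and 147 CPM, and without the top cells at 101, 70.6, 110.4 and 115.

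Of the 4 ligands 2 differed by at least 2-fold between ConA+Veh and Naïve in CD8 cells, *Xcl1* upward and *Ccl5* downward, where 23.7% of genes did so. *Ccl3*, with 3 UMIs in Naïve, could reach the limit of 50 UMIs only by such a difference and is not counted. Between ConA+TCDD and ConA+Veh 2 ligands, *Ccl3* and *Xcl1*, were at least 2-fold lower (1.37% of genes differed by that fold), as were the same 2 between ConA+FICZ and ConA+Veh (2.35% of genes). Without the top cell of each library *Ccl3* was past 2-fold in neither of these comparisons, which leaves *Xcl1* alone. The *Ccl3* levels of all 4 libraries then lay below the highest B cell level of 11.3 CPM. That level, of ConA+Veh, was taken with the top B cell kept, so the compared values are unlike. *Ccl3* was found in 1 of 681 thinned B cells of that library. By library the B cell levels were 7.13, 11.3, 8.33 and 4.24 CPM. The CD8 level of ConA+FICZ without its top cell, 11 CPM, thus lay above the B cell level of its own library. Cells with at least 2 UMIs of *Rbm3* and none of *Cd52*, a pattern frequent in ConA+TCDD, made up 4.17%, 0.494%, 12.6% and 4.03% of the CD8 gate. Without them all the CD8 ratios of the 4 ligands kept their sign.

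CD4 T cells held little of these chemokines apart from *Ccl5*. *Ccl5* stood at 674 CPM [581 to 777] in Naïve (190 UMIs), 48.9 [37.4 to 62.9] in ConA+Veh (61), 97.3 [78.6 to 119] in ConA+TCDD (93) and 125 [104 to 149] in ConA+FICZ (127). In ConA+TCDD 62 of the 93 UMIs came from 1 cell, and without the top cell of each library the levels were 457, 34.8, 33 and 78.2 CPM, which turned the log2 ratio of ConA+TCDD over ConA+Veh from 0.99 to −0.07. *Ccl5* was the 1 ligand with at least 50 UMIs in the libraries compared. It differed by at least 2-fold between ConA+Veh and Naïve (log2 ratio −3.78, against 15.1% of genes past that fold), did not between ConA+TCDD and ConA+Veh (1.39% of genes) and did between ConA+FICZ and ConA+Veh (1.35, 3.51% of genes).

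The remaining ligands were scarce in CD4 cells, and for *Ccl3* and *Ccl4* no library exceeded the highest B cell level. *Ccl3* counted 0, 2, 4 and 0 UMIs, *Ccl4* 0, 2, 13 and 1, and *Xcl1* 1, 11, 7 and 1. The 3-count floor for a count of 0 in Naïve CD4 cells was 10.6 CPM.

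In myeloid cells *Ccl4* and *Ccl5* were highest in ConA+Veh, the library in which both were lowest in NK cells. *Ccl4* stood at 124 CPM [92.6 to 164] in Naïve, 1009 [957 to 1062] in ConA+Veh, 373 [316 to 438] in ConA+TCDD and 514 [476 to 555] in ConA+FICZ. ConA+Veh differed from Naïve by a log2 ratio of 3.02 [2.62 to 3.45], and ConA+TCDD and ConA+FICZ differed from ConA+Veh by −1.43 [−1.69 to −1.19] and −0.97 [−1.11 to −0.84]. A single ConA+Veh cell held 332 of the 1441 UMIs, and without the top cell of each library the order was unchanged at 104, 778, 317 and 451 CPM. *Ccl4* was detected in 12%, 30.8%, 25.6% and 22.2% of thinned myeloid cells, with overlapping intervals among the ConA libraries.

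The makeup of the myeloid gate moved as well. *C1qa*, a complement gene of macrophages, was found in 11.5% of its cells in Naïve and in 61.4%, 40.0% and 63.4% in the ConA libraries, without thinning. By CPM it stood at 544, 773, 193 and 1292, with ConA+TCDD below Naïve. *Lyz2*, the lysozyme gene of monocytes, macrophages and neutrophils, stood at 9519.9, 2298, 909 and 2406 CPM, and *Csf1r*, the receptor gene for macrophage colony-stimulating factor, at 609.8, 192, 105 and 307. *S100a8*, a gene of neutrophils and monocytes, stood at 17.1, 400.4, 2299 and 347 CPM. The share of cells with it ran otherwise, at 5.75%, 18.3%, 15.6% and 25.9% without thinning, with ConA+TCDD below ConA+Veh and ConA+FICZ. The part of these shifts in the ligand levels of the gate was not tested.

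*Ccl5* in myeloid cells counted 1 UMI in Naïve, 284 in ConA+Veh, 13 in ConA+TCDD and 79 in ConA+FICZ, or 2.44, 199, 32.6 and 60.4 CPM. In ConA+Veh 94 of the 284 UMIs came from 1 cell, and the level was 134 CPM without it. The levels of Naïve and ConA+TCDD did not exceed the highest B cell level of 36.7 CPM. The log2 ratio of ConA+Veh over Naïve, 6.35 [3.86 to 11.66], rests on the 1 UMI of Naïve, and ConA+TCDD and ConA+FICZ lay below ConA+Veh, with log2 ratios of −2.61 [−3.54 to −1.81] and −1.72 [−2.10 to −1.35]. *Ccl5* was detected in none of 83 thinned myeloid cells of Naïve (upper limit 4.35%), and in 10.3%, 4.65% and 5.82% of the others. RNA of lymphocytes in the myeloid cells was gauged by their own genes. *Nkg7*, *Gzma* and *Prf1*, which mark cytotoxic lymphocytes, stood at 26.6, 15.4 and 0 CPM in the ConA+Veh myeloid gate and at 4474, 20573 and 1445 CPM in the NK gate. *Gzmb* was detected in 0%, 6.49%, 0% and 1.06% of thinned myeloid cells. Without thinning *Trac* was found in 0%, 3.05%, 0% and 0% of the gate and *Cd8b1* in 3.45%, 5.08%, 4.44% and 1.46%. The part of such RNA in the myeloid *Ccl5* level was not tested.

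*Ccl3* in myeloid cells stood at 319.5, 205, 82.6 and 105 CPM, highest in Naïve. On 2 other scales Naïve and ConA+Veh were close, at 1.51 and 1.49 UMIs per cell and at 3.47 and 3.33 for the mean over cells of UMIs per 10000. Elsewhere they lay further apart. *Ccl3* was detected in 19.3% of thinned Naïve cells and 8.65% of ConA+Veh cells. The log2 ratio of ConA+Veh over Naïve, −0.64, was −1.70 with gates on thinned cells and −1.92 with stricter gates. In ConA+Veh 144 of its 293 UMIs came from the cell that also led *Ccl4*, and without the top cells the levels were 286, 105, 53.7 and 85.4. *Xcl1* counted 1, 5, 0 and 1 UMIs. Of the 3 ligands with at least 50 UMIs, *Ccl4* was at least 2-fold higher in ConA+Veh than in Naïve (14.6% of genes differed by that fold). So was *Ccl5*, which is not counted, since with 1 UMI in Naïve it could reach that limit only by such a difference. All 3 were at least 2-fold lower in ConA+TCDD than in ConA+Veh (7.27% of genes), *Ccl3* no longer so without the top cells, at −0.96, and 1, *Ccl5*, was so in ConA+FICZ (4.0% of genes). The ConA+TCDD myeloid gate held 45 cells, and with stricter gates its *Ccl3* ratio to ConA+Veh changed sign, to 0.13.

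Neutrophils carried *Ccl3* and *Ccl4* and little *Ccl5* or *Xcl1*. *Ccl3* stood at 273, 529, 720.1 and 587 CPM and *Ccl4* at 1637, 1857, 1760.4 and 2969.6 CPM, in 23, 93, 36 and 256 cells. A single Naïve neutrophil held 8 of the 16 *Ccl3* and 49 of the 96 *Ccl4* UMIs. Without the top cell of each library the levels were 148, 462, 546 and 468 CPM for *Ccl3* and 872, 1509, 1351 and 2566 CPM for *Ccl4*. The *Ccl4* level of ConA+FICZ was above that of ConA+Veh by a log2 ratio of 0.68 [0.53 to 0.83], while ConA+TCDD over ConA+Veh, at −0.08 [−0.37 to 0.20], reached across 0. *Xcl1* counted at most 2 UMIs in any library.

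**Figure D3:**
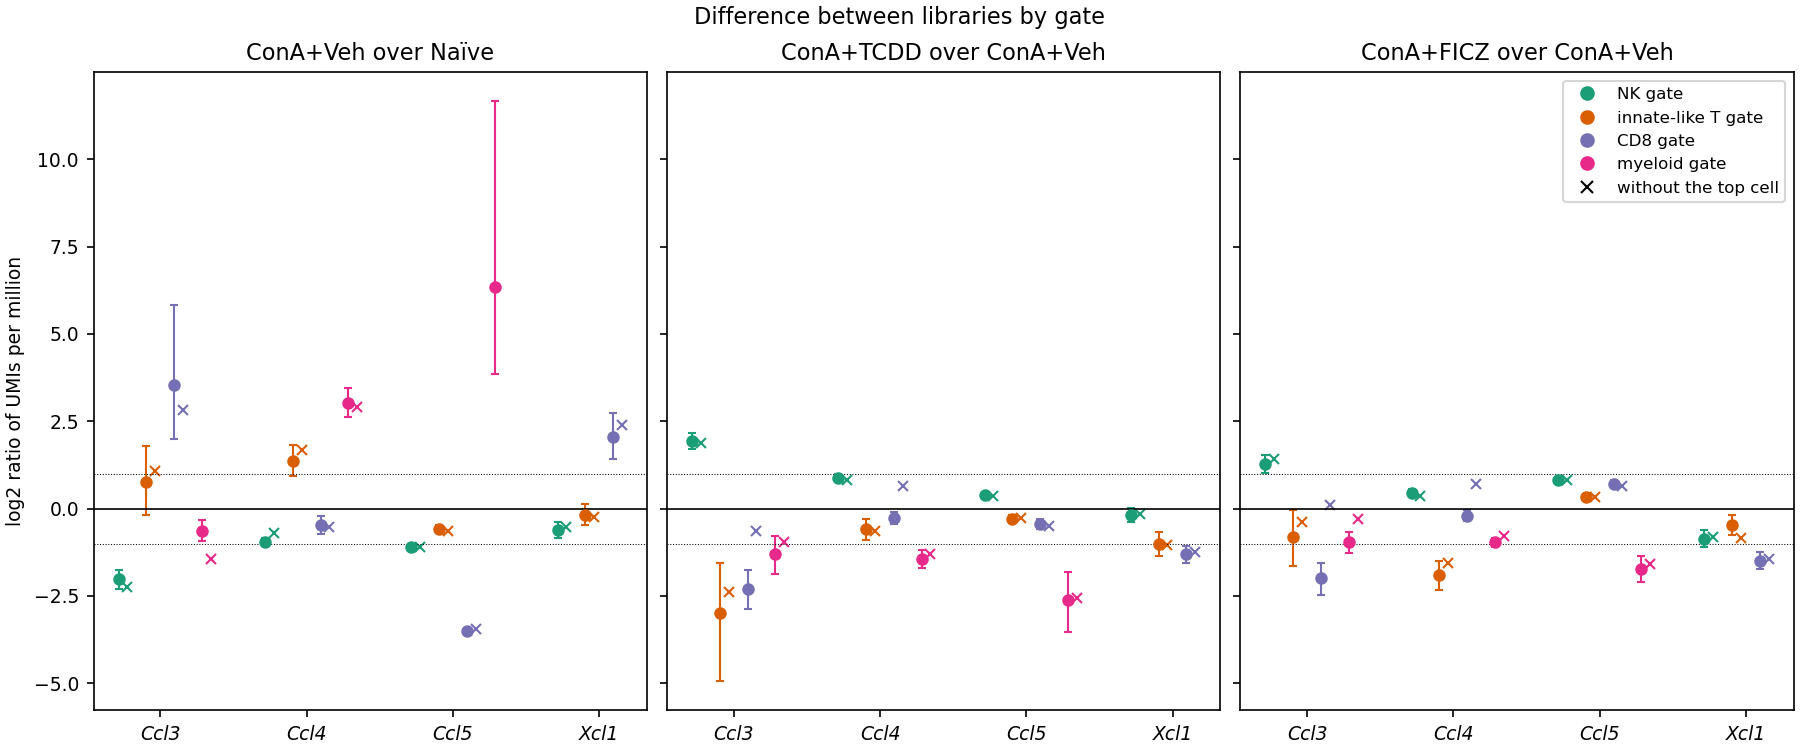
Log2 ratio of CPM between libraries for each ligand in 4 gates, with exact binomial 95% intervals. Crosses give the ratio without the cell that held the most UMIs of the gene in each library, and dotted lines mark 2-fold. For *Ccl3* the NK point lies at 1.93 in the panel of ConA+TCDD against vehicle, where the CD8, innate-like T and myeloid points lie below 0.

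Where the UMIs of each ligand lay within a library differed between ligands. For *Ccl5* the NK gate held 44.6%, 46.1%, 49.2% and 52.4% of all UMIs of the library, a range of few percentage points. For *Ccl3* it held 47.8% in Naïve and 52.8% in ConA+TCDD but 11.5% in ConA+Veh and 25.7% in ConA+FICZ. *Ccl4* behaved alike, at 47.2%, 20%, 43.2% and 18.8%. For *Xcl1* the NK gate held 41.5%, 27.7%, 32.5% and 29.3%, and the CD8 gate 3.65%, 36.6%, 16.8% and 27.8%, so that in ConA+Veh more *Xcl1* UMIs lay in CD8 than in NK cells. In ConA+FICZ the neutrophil gate held 29.1% of *Ccl3* and 29.3% of *Ccl4* UMIs. These shares depend on the number of cells of each gate in a preparation as well as on the level in a cell.

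Between 17.3% and 44.6% of a ligand's UMIs lay in cells of no gate, depending on the ligand and library. For *Ccl3* these shares were 21%, 44.6%, 34.4% and 28.4%. In ConA+Veh 7 of the 917 cells outside the gates held at least 20 UMIs of *Ccl3* each and together 608 of the 788 UMIs found there. The highest of them held 218 UMIs of *Ccl3* and 457 of *Ccl4*, with no Cd3 UMI and no NK marker. It had 2 markers of granulocyte progenitors and 2 myeloid markers. In ConA+Veh the 55 ungated cells set apart by progenitor markers held 311 of the 788 UMIs.

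**Figure D4:**
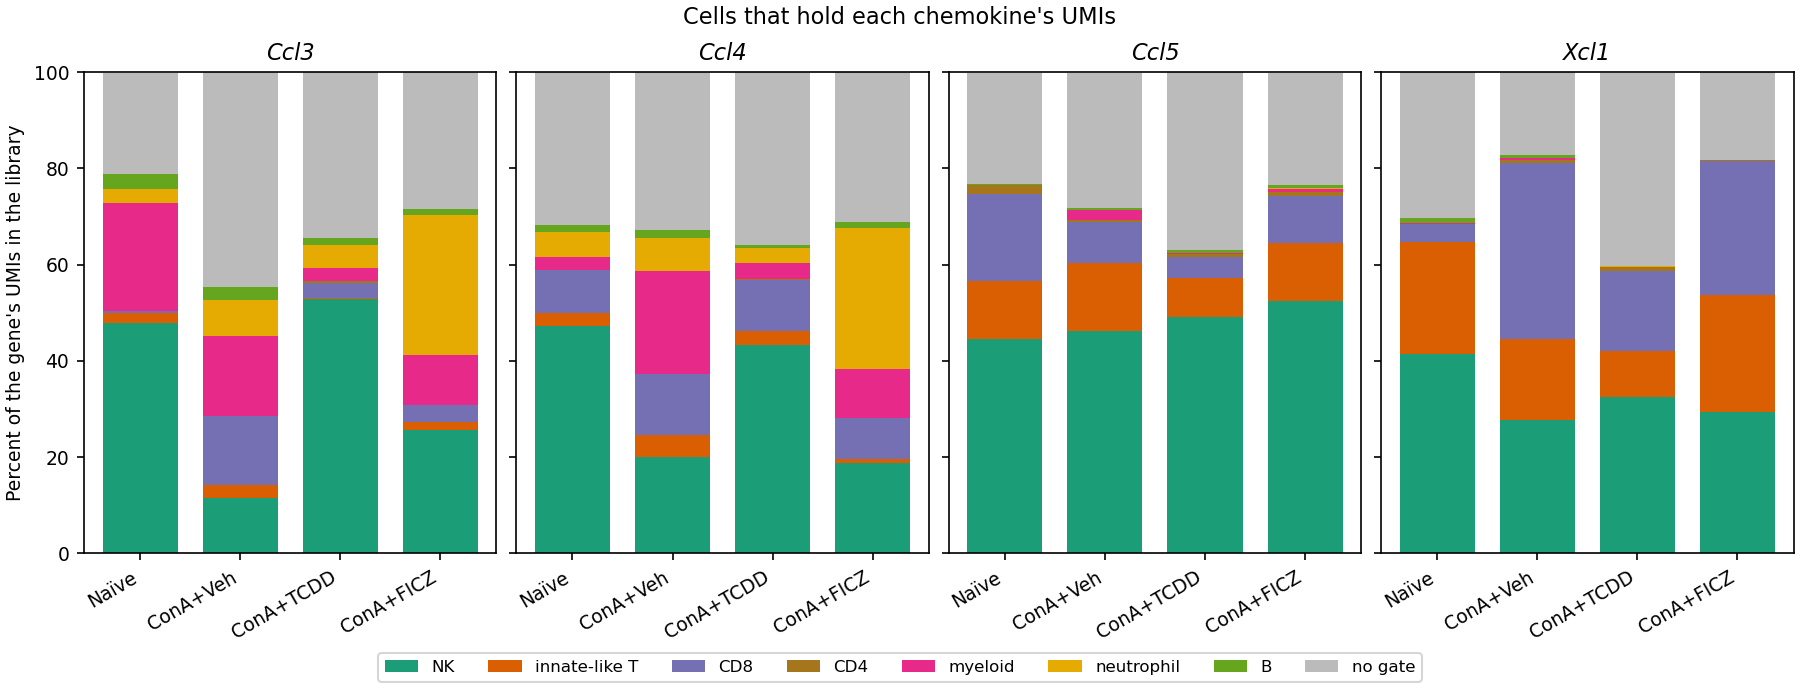
Percent of each ligand's UMIs in a library that lay in each gate or in cells of no gate (bars add to 100). The NK part of *Ccl5* stays between 44.6% and 52.4%, while that of *Ccl3* is 11.5% in ConA+Veh and 52.8% in ConA+TCDD.

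Ranked by level, the gates formed a stable order for *Ccl5* and *Xcl1*, with NK cells first, then innate-like T cells and then CD8 cells in all 4 libraries. The intervals of neighbours in that order did not overlap at these ranks, except between NK and innate-like T cells for *Xcl1* in ConA+FICZ. Next in order, CD8 and myeloid cells had overlapping intervals for *Ccl5* in ConA+Veh, as had CD8 cells with CD4 cells (Naïve) and with neutrophils (ConA+TCDD) for *Xcl1*. For *Ccl3* NK cells were first in Naïve, ConA+TCDD and ConA+FICZ, overlapping with neutrophils in both of the latter, and neutrophils were first in ConA+Veh. For *Ccl4* neutrophils were first in ConA+Veh, where they overlapped with NK cells, and in ConA+FICZ, where they did not.

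The ligands paired off in this pattern. Over 25 combinations of gate and library with at least 50 cells, the Pearson correlation of log2(CPM + 10) was 0.89 between *Ccl3* and *Ccl4* and 0.90 between *Ccl5* and *Xcl1*, and between 0.37 and 0.54 across these pairs. The combinations share libraries and gates, so these values describe likeness only. Among 9977 genes the closest to *Ccl3* were *Tyrobp*, *Cd244* and *Zfhx3* (0.92 each), and the closest to *Ccl4* were *Ccl3* and *Fcer1g* (0.89 each) and *Efhd2* (0.87). *Tyrobp* and *Fcer1g* encode signalling adaptors shared by NK and myeloid cells. The closest to *Ccl5* were *Ctla2a*, *Sytl3* (0.94 each) and *Pitpnc1* (0.93), and the closest to *Xcl1* were *Klrc1* (0.96), *Ifng* and *Klrd1* (0.95 each). *Klrc1* and *Klrd1* encode the NKG2A and CD94 chains of a receptor of NK cells and cytotoxic T cells.

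The receptor *Xcr1* was rare. It counted 13 UMIs in 5 cells of Naïve, 29 in 8 cells of ConA+Veh, 13 in 3 cells of ConA+TCDD and 0 in ConA+FICZ, for which the 3-count floor was 0.187 CPM over all cells. Cells with at least 2 markers of type 1 conventional dendritic cells, such as *Clec9a*, numbered 7, 17, 8 and 7. Without thinning *Xcr1* was detected in 4 of 7 (57.1% [18.4 to 90.1]), 5 of 17 (29.4% [10.3 to 56]), 2 of 8 (25% [3.19 to 65.1]) and 0 of 7 (upper limit 41%) of them. These intervals overlap, so no difference between libraries was detectable with so few cells. The median such cell held 4040, 8918, 19150 and 9413 UMIs, and after thinning to 1000 UMIs *Xcr1* was found in 1 of 7, 1 of 17, 0 of 8 and 0 of 7. These dendritic cells held 12 of the 13 *Xcr1* UMIs in Naïve, 19 of the 29 in ConA+Veh and 12 of the 13 in ConA+TCDD. A T cell carried *Xcr1* in 2 cases, both in ConA+Veh, and a B cell in none.

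Receptors of the CC ligands were measured from the same cells. *Ccr1* stood at 70.7, 120.4, 123 and 213 CPM in myeloid cells and at 529, 585, 693 and 522 in neutrophils, and in NK cells it counted at most 1 UMI. In myeloid cells *Ccr1* differed by less than 2-fold in each of the 3 comparisons. *Ccr3*, *Ackr1* and *Ackr2*, an eosinophil receptor and a pair of scavenging receptors, counted at most 2 UMIs in any of the NK, CD8, innate-like T, myeloid and neutrophil gates.

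The chemokine genes *Ccl6* and *Ccl9*, which lie between *Ccl5* and *Ccl3*, were measured in myeloid cells and hardly in NK cells. *Ccl6* stood at 1837, 1377, 636 and 2077 CPM and *Ccl9* at 317, 301, 175 and 393 CPM in myeloid cells, whereas in NK cells neither exceeded 7.73 CPM. Between ConA+TCDD and ConA+Veh *Ccl6* was at least 2-fold lower in myeloid cells and *Ccl9* was not.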

How the data were processed

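Liver mononuclear cells were isolated on Percoll after tissue dissociation, red cells were lysed, and 1 library per condition was made with a Chromium 5′ single-cell kit. The authors deposited raw UMI counts per gene and cell barcode, made with Cell Ranger 3.0.2 on mm10 per the labels and the study's methods. The release of the gene annotation is not given in the sources used here.

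All 9300 deposited barcodes and 31053 genes were read, and no cell was filtered or removed as a doublet in the values reported. Each cell was placed in at most 1 gate by listed markers. A T cell needed at least 1 UMI of a Cd3 gene, a CD8 cell *Cd8a* or *Cd8b1* besides, a CD4 cell *Cd4*, an innate-like T cell *Cd3e* with *Zbtb16*, *Trdc* or *Klrb1c* and no *Cd8b1*, an NK cell at least 2 of 5 NK markers, a myeloid cell at least 3 of 10 markers, a neutrophil at least 3 and a B cell at least 2. UMIs were summed per gate and library and divided by the gate's total UMIs. Exact 95% intervals were Poisson for a sum, Clopper-Pearson for a share and conditional binomial for a ratio. The ratio intervals were tested on simulated counts drawn independently, so that test could not show the effect of UMIs clumped in few cells. Intervals of sums and ratios do not cover such clumping, and no interval covers the spread between animals. Shares of positive cells were taken after thinning each cell to 1000 UMIs (random seed 1 for the first library, then counting up), except for marker genes and where a share is said to be without thinning. For a count of 0 the floor was 3 counts. The authors' test over cells (sSeq) was not repeated, since cells of 1 library are not replicates, and no p-value is given.

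The background for a fold was the share of genes at least 2-fold apart among those with at least 50 UMIs in both libraries together. The genes named were the 5 members, the genes of 3 lists (receptors, neighbouring chemokine genes, effector genes) and, for each ligand, the 3 genes with the highest Pearson correlation of log2(CPM + 10) over gates and libraries with at least 50 cells, among genes with at least 100 UMIs, T cell receptor and immunoglobulin segments left out. The members and lists were chosen with earlier results of these data known. A listed receptor, and a split of T cells that used a listed marker, are not reported here. *Ncr1*, *Nkg7* and marker genes are named only to check gates. Some of them also set the gate, so their presence in it is no independent check. These are *Ncr1*, *Klre1* and *Klrb1c* for NK cells, *Trdc* and *Klrb1c* for innate-like T cells, and *C1qa*, *Lyz2* and *Csf1r* for myeloid cells. Levels were recomputed with other denominators, cell filters, gates and without cells of highest depth. Sequences and positions come from GENCODE vM21 (GRCm38) and RefSeq (GRCm38.p6). Computations used Python 3.11.15 with numpy 2.4.6, scipy 1.17.1, pandas 2.3.3 and matplotlib 3.10.9.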

Additional observations from a re-analysis of the deposited data

Results flagged for a closer look

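For some ligands the same contrast between libraries ran in opposite directions in 2 gates. Listed here are pairs with a difference of at least 2-fold in each gate and neither counting interval reaching 0. Opposite pairs with a smaller difference in a gate, such as *Xcl1* for ConA+Veh over Naïve in CD8 and NK cells, are left out. None of these differences between gates was tested, because each library stands alone. For *Ccl3* the log2 ratio of ConA+TCDD over ConA+Veh in NK cells lay above that in CD8 cells by 4.22, above that in innate-like T cells by 4.93 and above that in myeloid cells by 3.24, and the ratio of ConA+FICZ over ConA+Veh in NK cells lay above that in CD8 cells by 3.28. For ConA+Veh over Naïve the *Ccl3* ratio in CD8 cells lay above that in NK cells by 5.57. In CD8 cells the *Ccl3* ratios of ConA+TCDD and ConA+FICZ to ConA+Veh rest on the ConA+Veh cell with 200 of 251 UMIs. Without the top cells they were −0.63 and 0.10. The CD8 ratio of ConA+Veh over Naïve was then 2.82, and its Naïve count was 3 UMIs with all cells. In innate-like T cells the *Ccl3* ratio of ConA+TCDD to ConA+Veh rests on 4 UMIs in ConA+TCDD and 49 in ConA+Veh. In myeloid cells that ratio was −0.96 without the top cells, and it changed sign with stricter gates, to 0.13.

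*Ccl5* for ConA+Veh over Naïve lay higher in myeloid cells than in NK cells by 7.44 on the log2 scale, than in CD8 cells by 9.86 and than in CD4 cells by 10.13, where Naïve myeloid cells held 1 UMI. For ConA+FICZ over ConA+Veh *Ccl5* in CD4 cells lay above that in myeloid cells by 3.07. *Ccl4* for ConA+TCDD over ConA+Veh lay higher in CD4 cells than in myeloid cells by 4.51, with 13 and 2 UMIs in the CD4 gates.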

How the results depend on the processing

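The 4 libraries set the main limit, since a difference between conditions and a difference between preparations cannot be told apart. Over 496 recomputed values 368 stayed within their interval, 105 moved further and 23, whose interval had excluded 0, changed sign. In NK cells 1 of 108 ratios changed sign so. Below, V stands for the log2 ratio of ConA+Veh to Naïve, T for that of ConA+TCDD to vehicle and F for that of ConA+FICZ to vehicle, and the cause of a move was not tested unless a single cell was left out. No paired analysis was possible because each condition has 1 library, so that leaving out a replicate was not possible either.

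In NK cells, mean UMIs per cell gave V −1.21 for *Ccl3*, V −0.14 and F 0.29 for *Ccl4*, V −0.28, T 0.47 and F 0.67 for *Ccl5*, and V 0.20 for *Xcl1*, which changed sign. The mean over cells of UMIs per 10000 gave V −0.79 and T 1.12 for *Ccl4* and V −0.79, T 0.45 and F 0.73 for *Ccl5*. Gates on thinned cells, which rest on 1 random draw, gave V −1.62 and T 2.21 for *Ccl3*, T 1.30 for *Ccl4*, and V −0.74 and T 0.46 for *Ccl5*. Stricter gates gave T 0.78 and F 0.28 for *Ccl4*, V −1.20, T 0.49 and F 0.65 for *Ccl5*, and V −1.04 and F −0.52 for *Xcl1*. Without the 5% deepest cells V was −1.09 for *Ccl4* and F 0.75 for *Ccl5*. Without the top cell, a setting chosen after seeing the data, V was −0.71 for *Ccl4*. Filters on genes and mitochondrial share, leaving out cells with *Rbm3* and no *Cd52*, and totals without ribosomal and mitochondrial genes moved no NK ratio beyond its interval.

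For shares of NK cells, requiring 2 UMIs gave a difference between ConA+Veh and Naïve of −13.4 percentage points for *Ccl3* and −18.4 for *Ccl5*. With no thinning it was −5.28 for *Ccl5* and 2.28 for *Xcl1*, which changed sign.

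In other gates these values changed sign. Gates on thinned cells, which kept fewer cells, gave F 1.39 for *Ccl3* and T 1.43 for *Ccl4* in innate-like T cells, and for *Ccl5* T 0.23 (CD8), T −1.79 (CD4) and T 0.58 and F −0.28 (innate-like T). Without the 5% deepest cells, CD8 values were F 0.46 for *Ccl3* and V 0.82, T 1.10 and F 1.09 for *Ccl4*. Without the top cell they were F 0.10 for *Ccl3* and T 0.65 and F 0.71 for *Ccl4*, and T was −0.07 for *Ccl5* in CD4 cells. Stricter gates gave T 0.13 and F 0.33 for *Ccl3* in myeloid cells. For *Ccl4* in CD8 cells the mean per 10000 gave V 0.56 and T 0.26, and mean UMIs per cell V 1.09 and F 0.11. For *Ccl5* in innate-like T cells the latter gave V 0.51.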
